A study of Rattus norvegicus with 22 samples.

Results

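The 11 male animals of a rat study of maternal obesity are described here across every transcript in their deposited table. The members are all 1365 rows of the larger of 2 deposited tables, and the animals are 11 of 22 in the study. All are Wistar rats whose liver RNA was sequenced at postnatal day 110. The mothers had received a control diet (6 control males) or an obesogenic diet (5 males of the maternal obesity group, MO). The smaller table, of 69 rows, holds 6 control and 5 MO females of the same strain and age, and enters only for genes present in both tables. The labels give no litters, so a p-value here reflects only how these animals vary.

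The rows had been selected by the authors before deposit. No row has a p of 0.05 or more in the authors' deposited table, where the largest is 0.04964, and the smallest change on the log2 scale was 0.48. By accession the table covers 1347 transcripts (18 rows are repeats) and by symbol 1325 genes. Each value is in RPM, reads scaled to the size of the library, deposited with 1 added, and every fold change below is a difference of mean log2(RPM + 1), MO minus control, which understates the change of genes at low levels. Of the 1365 rows, 100% passed limma's test at a Benjamini-Hochberg adjusted p of 0.05 over the table, because all of them had been listed for a difference. The adjusted p is therefore no false discovery rate over all liver transcripts, and the values per animal and the overlap of the groups are given beside it.

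The liver makes most proteins of the blood plasma, exports bile, and stores or releases glucose and fat according to what hormones signal. An obese mother's diet during pregnancy and lactation is known from rodent work to alter liver fat and insulin sensitivity in adult offspring, often differently in sons and daughters. Beside these metabolic tasks, hepatocytes carry the machinery of any cell, such as membrane traffic, protein breakdown, transcription and repair, and the account below gives most room to those genes.

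RefSeq promoter sequences were matched for 31 of the 40 genes that carry an official symbol and had the largest rises (20 genes) and falls (20 genes). Of these 31 genes, 13 were higher and 18 lower in MO males. In 6 of the 31 the palindrome CACGTG lies in the 250 bases before the annotated start. It is the E-box read by Myc, by the clock proteins and by other factors of their class. These 6 genes are shown because the same 6 letters stand before genes that rose and genes that fell. The share over all promoters, given below, is for a wider window. The sequences are from RefSeq (build GRCr8, 5′ to 3′ on the strand of the gene) with the E-box in capitals. Those of Mapkapk3 (chr8:116842229-116842478, minus strand), Lonrf3 (chrX:120430781-120431030, plus strand) and Vps37b (chr12:38220723-38220972, plus strand) belong to genes that were higher in MO males. Those of Ppp1r3c (chr1:243878528-243878777, minus strand), Tnfaip2 (chr6:136297832-136298081, plus strand) and Cth (chr2:249661067-249661316, minus strand) belong to genes that were lower.
Mapkapk3: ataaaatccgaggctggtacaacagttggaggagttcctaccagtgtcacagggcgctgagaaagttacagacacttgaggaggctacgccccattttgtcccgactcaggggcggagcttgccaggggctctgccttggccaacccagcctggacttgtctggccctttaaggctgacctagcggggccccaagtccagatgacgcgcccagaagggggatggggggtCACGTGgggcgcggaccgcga
Lonrf3: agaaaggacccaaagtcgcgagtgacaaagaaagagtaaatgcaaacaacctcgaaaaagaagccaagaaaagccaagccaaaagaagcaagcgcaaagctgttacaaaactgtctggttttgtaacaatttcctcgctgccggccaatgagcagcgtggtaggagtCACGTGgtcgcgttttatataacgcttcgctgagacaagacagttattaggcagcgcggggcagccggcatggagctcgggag
Vps37b: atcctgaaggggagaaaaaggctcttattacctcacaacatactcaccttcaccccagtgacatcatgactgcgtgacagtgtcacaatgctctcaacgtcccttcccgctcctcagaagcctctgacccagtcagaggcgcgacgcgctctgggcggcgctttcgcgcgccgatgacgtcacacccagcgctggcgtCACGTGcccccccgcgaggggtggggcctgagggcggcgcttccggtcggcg
Ppp1r3c: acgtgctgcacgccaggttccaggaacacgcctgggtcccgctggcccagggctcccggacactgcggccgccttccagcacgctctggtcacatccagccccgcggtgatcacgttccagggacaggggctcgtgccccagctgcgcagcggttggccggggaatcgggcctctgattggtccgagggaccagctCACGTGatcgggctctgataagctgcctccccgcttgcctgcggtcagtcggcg
Tnfaip2: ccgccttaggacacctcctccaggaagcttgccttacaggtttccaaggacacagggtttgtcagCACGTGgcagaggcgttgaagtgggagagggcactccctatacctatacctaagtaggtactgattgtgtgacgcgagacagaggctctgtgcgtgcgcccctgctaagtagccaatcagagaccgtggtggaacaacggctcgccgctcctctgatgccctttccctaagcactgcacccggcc
Cth: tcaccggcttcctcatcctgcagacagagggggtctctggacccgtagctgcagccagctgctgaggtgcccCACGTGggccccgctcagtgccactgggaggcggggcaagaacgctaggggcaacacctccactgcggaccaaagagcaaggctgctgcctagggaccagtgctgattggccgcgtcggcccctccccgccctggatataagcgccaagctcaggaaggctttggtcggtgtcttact
The first base of the E-box lies at -21 from the start in Mapkapk3, at -83 in Lonrf3, at -52 in Vps37b, at -54 in Ppp1r3c, at -185 in Tnfaip2 and at -178 in Cth. Over windows of 250 bases before to 50 after the start, read on both strands, CACGTG was found in 8 of 33 higher genes with a sequence (24.2%), in 92 of 1041 lower genes (8.84%) and in 7.98% of 15159 protein-coding promoters. Those 8 genes are Derl3, Dusp1, Lonrf3, Mapkapk3, Mapre2, Plin2, Vgll4 and Vps37b. The cAMP response element TGACGTCA, bound by CREB-type factors, was found in 3 of 33 higher genes (9.09%), 24 of 1041 lower genes (2.31%) and 2.55% of all promoters. Dusp1 and Vps37b hold both motifs, and in 0 of the 7 listed genes with both do their letters overlap. The CCAAT box stood in 48.5% of the higher, 42.7% of the lower and 38.2% of all promoters, and the GC box GGGCGG in 75.8%, 59.7% and 49.8%. A match of letters shows neither binding nor a cause, and the shares were not tested.

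Depth, read from the smallest step between low values, was 7890000 to 11170000 reads in the control libraries and 10530000 to 11590000 in the MO libraries. Only control 5, at 11170000 reads, lay within the MO range, and every other control library lay below every MO library. Control 6 stood above the other controls, with a median deviation of 0.41 on the log2 scale from the control mean over all rows, and it was the highest control in 974 of 1365 rows. Controls 2 and 4 stood below, at -0.19 and -0.17, and were together the lowest controls in 408 rows (29.9%), while the pair of controls 4 and 5 was lowest in 226. In the MO group the median deviations ran from -0.17 in MO 5 to 0.15 in MO 4. Without control 6, 1304 of the 1317 lower rows and 48 of the 48 higher rows still passed. The median SD within a group was 0.31 on the log2 scale in controls and 0.27 in MO males, and 888 rows had the larger SD in controls.

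The fall was broad and the rise narrow. In MO males 1317 rows were lower (96.5% of the table) and 48 were higher (3.52%), which came to 1279 lower and 46 higher genes. The median change was -0.58 among lower rows and 0.78 among higher rows. Falls of 1 or more on the log2 scale made up 71 of the lower rows (5.39%), against 14 of the higher rows for rises of that size (29.2%). All 5 MO males lay beyond every control in 418 rows (30.6%), 408 of them lower (31% of lower rows) and 10 higher (20.8% of higher rows).

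**Figure D1:**
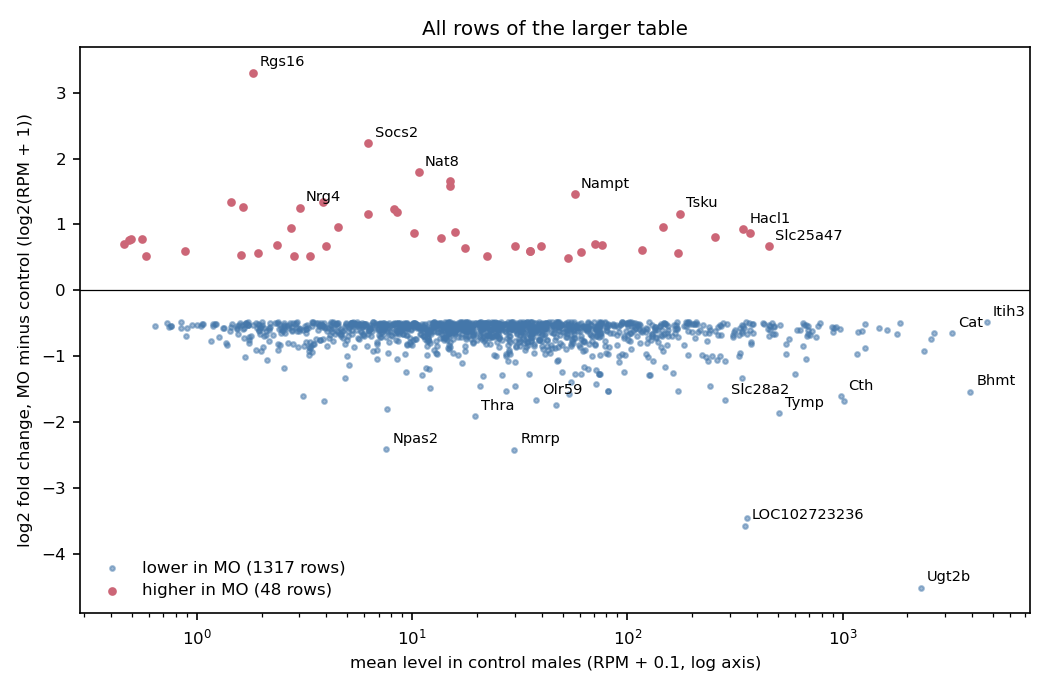
Each point is a row of the male table, with the mean level in the 6 controls (RPM + 0.1, log axis) across and the log2 fold change of the 5 MO males up. The 1317 lower rows form a dense band just under the selection limit at all levels, with a median of -0.58, and the 48 higher rows lie mostly under 100 RPM.

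Among the selected rows the median fall of log2(RPM + 1) differed little between levels of expression. No change under 0.48 in size was listed, and the added 1 shrinks changes at low levels, so both limits shape this evenness. Lower rows with a control mean under 1 RPM (14 rows) had a median change of -0.53, those at 1 to 10 RPM (347 rows) of -0.58, those at 10 to 100 RPM (751 rows) of -0.58, those at 100 to 1000 RPM (188 rows) of -0.61 and those over 1000 RPM (17 rows) of -0.65. No higher row had a control mean over 1000 RPM. The listed transcripts together took 9.61% to 15.2% of all reads in controls and 6.56% to 8.66% in MO males, groups that did not overlap. As 96.5% of the selected rows were lower, a lower sum was built in. In bulk tissue, fewer cells of a type and less RNA per cell cannot be told apart.

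A few abundant genes held much of the summed change. Summed over transcripts, group means fell by 46342 RPM and rose by 2089 RPM. The 10 transcripts with the largest loss made up 25.7% of the fall, namely the methyltransferase Bhmt, the glucuronosyltransferase Ugt2b, the plasma protein Itih3, catalase (Cat), the cytochromes Cyp3a2, Cyp2c13 and Cyp8b1, the tyrosine breakdown enzyme Hpd, the sterol carrier Scp2 and the cysteine-forming Cth. The 4 with the largest gain made up 51.2% of the rise, namely the peroxisomal enzymes Ehhadh and Hacl1, the mitochondrial carrier Slc25a47 and the lipid droplet protein Plin2.

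Because nearly all rows fell, the scale of the libraries decides how many falls count as particular to a gene. Centring each library on its median over the rows shifts every change by 0.58 upwards. That median comes from selected rows that nearly all fell. About as many lower rows must therefore change sign as keep it, and higher rows move further up. After centring, 48 higher and 24 lower rows passed limma's test at an adjusted p of 0.05 (3.52% and 1.76% of rows), and 658 of the 1317 lower rows kept a negative sign. All 48 of the higher rows were among those that passed, which the upward shift favours. The 24 lower rows were Npas2, Thra, Tymp, Atp2b2, Olr1353, Olr59, Slc28a2, Cth, Tcea3, Tsc22d1, Tmem176b, Slc13a4, Gldc, Sgk2, Acsm5, Arhgef19, Adamts7, Acox2, Galt, Rmdn2, Aqp8, Hdhd3, Sectm1b and Aqp9. Whether the shared shift lies in the liver or in the scaling of the libraries was not tested.

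Secreted proteins that were higher included Nrg4, Tsku and Angptl4. Nrg4, a neuregulin that binds the receptor ErbB4, stood at 1.00 to 5.42 RPM in controls (median 2.61) and at 14.4, 9.21, 4.23, 9.53 and 4.23 RPM in MO males 1 to 5. Males MO 1, 2 and 4 lay above every control and MO 3 and 5 within the control range, and the change was 1.26 ± 0.30 (SE; limma adjusted p = 0.0035). Tsku, the secreted proteoglycan tsukushi, on chromosome 1, ran from 81.5 to 294 RPM in controls (median 165) and was at 460, 460, 430, 264 and 222 RPM in MO males. Only MO 1, 2 and 3 cleared the controls, of which 1 and 4 were high and 2 and 3 low, and the change was 1.17 ± 0.30 (SE; limma adjusted p = 0.0045). Against controls 1 and 5 alone, Tsku did not pass (0.61; limma adjusted p = 0.091).

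Angptl4, an inhibitor of lipoprotein lipase on chromosome 7, separated the groups, with 91.3 to 218 RPM in controls (median 144) and 309, 237, 267, 346 and 237 RPM in MO males.

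Signalling proteins that were higher included Rgs16, Socs2, Mapkapk3, Dusp1 and Irs2. Rgs16, a GTPase activator that shortens G protein signals, on chromosome 13, was at 0 to 3.40 RPM in controls (median 1.45) and at 9.20, 28.6, 45.0, 10.5 and 51.6 RPM in MO males. No MO male overlapped the controls, but MO 1 and 4 stood well under the other 3 MO males (3.30 ± 0.39, SE; limma adjusted p = 8.4e-06). Socs2, a feedback inhibitor of growth hormone signals on chromosome 7, had 1.07 to 17.8 RPM in controls (median 4.91) and 29.8, 19.3, 11.5, 20.2 and 54.9 RPM in MO males. MO 3 lay within the control range, which control 1 widened at its top.

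Mapkapk3, a kinase downstream of p38, on chromosome 8, was at 2.41 to 6.70 RPM in controls (median 4.81) and at 7.66, 14.3, 5.47, 10.3 and 10.4 RPM in MO males (0.96 ± 0.23, SE; limma adjusted p = 0.0035). Dusp1, a phosphatase of MAP kinases on chromosome 10, was at 62.6 to 104 RPM (median 72.7) and at 208, 128, 108, 109 and 81.6 RPM. In each of the genes 4 MO males lay above the controls and 1 did not, MO 3 for Mapkapk3 and MO 5 for Dusp1. Irs2, which couples the insulin receptor to PI3 kinase, was at 9.99 to 26.6 RPM in controls (median 18.5) and at 34.9, 19.7, 18.97, 32.9 and 31.9 RPM in MO males, with MO 2 and 3 inside the control range.

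Of nuclear and cell cycle genes, the transcription factor Myc and the kinase Wee1, which holds cells before mitosis, were higher. Myc, on chromosome 7, was at 4.12 to 16.4 RPM in controls (median 7.04) and at 22.8, 14.1, 12.5, 24.2 and 23.6 RPM in MO males. MO 2 and 3 were below control 6, the highest control (1.23 ± 0.26, SE; limma adjusted p = 0.0016). Wee1, on chromosome 1, was at 1.499 to 6.78 RPM (median 3.50) and at 11.5, 8.74, 10.5, 9.91 and 9.32 RPM, without overlap (1.34 ± 0.25, SE; limma adjusted p = 0.00072).

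Higher genes of mitochondrial and peroxisomal metabolism included Hacl1, Ehhadh and Pdk4. Hacl1, a lyase that shortens branched and hydroxylated fatty acids in peroxisomes, on chromosome 16, was at 178 to 458 RPM in controls (median 381) and at 774, 711, 511, 661 and 509 RPM in MO males. The groups did not overlap (0.93 ± 0.23, SE; limma adjusted p = 0.0037). Ehhadh, of peroxisomal beta-oxidation on chromosome 11, was at 227 to 476 RPM and at 598, 435, 858, 948 and 599 RPM, with MO 2 in the control range. Pdk4, which turns off pyruvate dehydrogenase, was at 10.6 to 18.3 RPM and at 53.3, 33.1, 38.6, 47.4 and 80.3 RPM, and Nampt, of NAD salvage, at 42.7 to 74.9 RPM and at 164, 142, 231, 112 and 151 RPM, both without overlap.

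The 3 listed higher mitochondrial carriers were Slc25a30, Slc25a47 and Slc25a42. Slc25a47 of the liver, on chromosome 6, was at 267 to 612 RPM in controls (median 458) and at 771, 597, 656, 985 and 566 RPM in MO males. MO 2 and 5 overlapped the controls (0.67, limma adjusted p = 0.0094). Slc25a42, a carrier of coenzyme A on chromosome 16, was at 85.7 to 172 RPM (median 99.3) and at 177, 153, 207, 230 and 117 RPM, and it too left MO 2 and 5 in the control range. Slc25a30 was at 2.41 to 44.6 RPM, where control 6 held the top, and at 36.2, 30.5, 19.8, 31.0 and 52.4 RPM, so that only MO 5 cleared the controls.

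Of membrane traffic and protein quality control, Vps37b, Rab30, Derl3 and Lonrf3 were higher. Vps37b, a subunit of the ESCRT-I sorting complex on chromosome 12, was at 9.49 to 22.7 RPM in controls (median 15.5) and at 37.7, 30.0, 24.2, 19.8 and 35.0 RPM in MO males. All but MO 4 lay above the controls (0.88 ± 0.22, SE; limma adjusted p = 0.0040). Rab30, a Golgi GTPase, was at 22.9 to 60.9 RPM and at 61.5, 45.3, 58.2, 82.5 and 62.7 RPM, with MO 2 and 3 in the control range. Derl3, which helps to remove misfolded proteins from the endoplasmic reticulum, changed by 0.52 and Lonrf3, a RING finger protein, by 0.95, from 2.65 RPM in controls, and for Lonrf3 only MO 4 lay above control 4, the highest control.

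**Figure D2:**
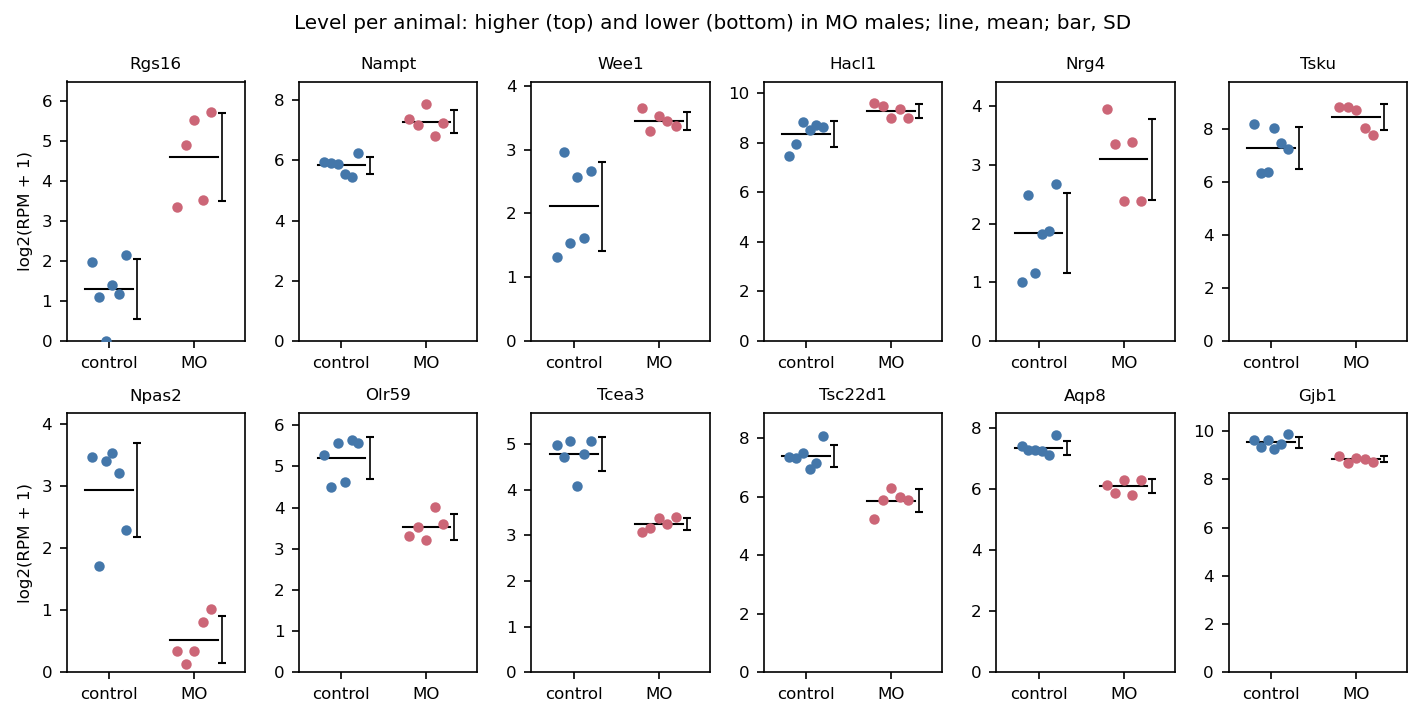
Each point is an animal, with its level as log2(RPM + 1) up and the group across, the line is the mean and the bar the SD. The top panels hold genes that were higher in MO males (Nrg4 and Tsku with animals inside the control range) and the bottom panels genes whose 5 MO males all lay below every control.

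The carriers Slc28a2 and Slc13a4 were lower. Slc28a2, which takes up purine nucleosides, on chromosome 3, was at 189 to 376 RPM in controls (median 282) and at 71.7, 48.6, 186, 72.1 and 104 RPM in MO males. MO 3 came close to the lowest control, but no animal overlapped (-1.66 ± 0.26, SE; limma adjusted p = 0.00013). Slc13a4, a sulfate carrier on chromosome 4, was at 49.4 to 103 RPM (median 65.7) and at 17.9, 21.3, 27.97, 38.8 and 23.2 RPM, all below the controls.

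Both listed aquaporins fell. Aqp8, a water channel of the canalicular side of the hepatocyte, on chromosome 1, was at 136 to 215 RPM in controls (median 154) and at 69.5, 57.9, 78.1, 55.1 and 77.8 RPM in MO males (-1.26 ± 0.17, SE; limma adjusted p = 3.0e-05). Aqp9, which lets glycerol into hepatocytes, on chromosome 8, was at 143 to 256 RPM (median 181) and at 96.9, 96.7, 103, 100.04 and 76.5 RPM (-0.99 ± 0.18, SE; limma adjusted p = 0.00045). In both genes every MO male was below every control, and both passed after centring.

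Avpr1a, the vasopressin receptor of the liver, on chromosome 7, was at 60.4 to 90.4 RPM in controls (median 69.2) and at 24.7, 22.0, 36.8, 30.1 and 39.2 RPM in MO males. The groups did not overlap, and the change was -1.22 ± 0.18 (SE; limma adjusted p = 8.6e-05), or -0.63 after centring (limma adjusted p = 0.075). The 2 listed olfactory receptors were lower too, without overlap. Olr59, on chromosome 1, was at 21.7 to 49.2 RPM (median 41.8) and at 8.84, 10.5, 8.29, 15.1 and 11.2 RPM, and Olr1353, on chromosome 9, at 1.81 to 5.10 RPM (median 4.27) and at 0.271, 0.095, 0.970, 0.661 and 0.345 RPM. Atp2b2, a calcium pump of the plasma membrane, was at 4.39 to 15.7 RPM (median 6.35), with control 1 at the top, and at 0.902, 0.855, 2.03, 1.51 and 1.21 RPM.

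Tcea3, Tsc22d1 and Thra, which act in transcription, were lower. Tcea3, an elongation factor of RNA polymerase II on chromosome 5, was at 15.8 to 32.7 RPM in controls (median 28.4) and at 7.39, 7.88, 9.35, 8.49 and 9.49 RPM in MO males (-1.53 ± 0.18, SE; limma adjusted p = 1.0e-05). Tsc22d1, a leucine zipper protein induced by TGF-beta, on chromosome 15, was at 121 to 265 RPM (median 160) and at 36.3, 57.7, 77.0, 62.9 and 58.6 RPM (-1.53, limma adjusted p = 3.0e-05). The thyroid hormone receptor Thra lay at 3.10 to 4.08 RPM in the 5 MO males. Every MO male was below every control in these genes, though for Thra controls 2 and 4 were near the MO level.

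The kinase Sgk2, the exchange factor Arhgef19 and the protease Adamts7 were lower as well. Sgk2, a kinase related to the glucocorticoid-induced Sgk1, on chromosome 3, was at 12.8 to 38.2 RPM in controls (median 17.9) and at 6.67, 6.46, 6.70, 10.9 and 6.90 RPM in MO males. Arhgef19, an exchange factor for small GTPases on chromosome 5, was at 99.9 to 153 RPM (median 131) and at 53.1, 45.3, 39.3, 69.7 and 52.0 RPM. Adamts7, a secreted metalloprotease on chromosome 8, was at 23.0 to 51.8 RPM (median 29.2) and at 12.3, 8.93, 21.1, 12.9 and 12.8 RPM. None of the 3 overlapped between groups, and all 3 passed after centring.

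Cdh1, the E-cadherin of hepatocyte contacts, on chromosome 19, was at 68.1 to 119 RPM in controls (median 87.3) and at 43.0, 32.2, 46.4, 38.8 and 47.2 RPM in MO males (-1.09 ± 0.19, SE; limma adjusted p = 0.00034). Gjb1, the connexin of hepatocyte gap junctions on chromosome X, was at 619 to 949 RPM (median 748) and at 505, 411, 474, 458 and 424 RPM (-0.71 ± 0.17, SE; limma adjusted p = 0.0033). Both separated the groups, and neither passed after centring, where Gjb1 stood at -0.13.

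The 10 lower genes without overlap that had the highest control mean were Bhmt, Cat, Cyp2a2, Serpinf2, Cth, Ptms, Aldh9a1, Gjb1, Abcc6 and Cd164. Serpinf2, the plasmin inhibitor of blood plasma, on chromosome 10, was at 976 to 1537 RPM in controls and at 838, 738, 813, 723 and 644 RPM in MO males (-0.64, limma adjusted p = 0.0058). Abcc6, an exporter of the hepatocyte whose loss lets tissues calcify, was at 538 to 956 RPM and at 476, 410, 432, 505 and 368 RPM. Ptms, a small acidic nuclear protein, and Aldh9a1, an aldehyde dehydrogenase, were each at -0.55 and at 0.03 after centring.

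Gene families were counted from 49 lists drawn up beyond the usual metabolic ones. Of these, 43 held a listed gene, and in 34 every listed gene was lower. The lists together held 283 of the 1325 genes, 272 lower and 11 higher. After centring 135 lay below and 148 above the median change. Of 18533 curated protein-coding genes of the reference, 7.04% were listed, which is the share to set beside those of the lists, though some lists also hold predicted genes. No share was tested. Among the 1279 lower genes of the table, 31.4% had no overlap between groups, and the median over all genes was -0.58.

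**Figure D3:**
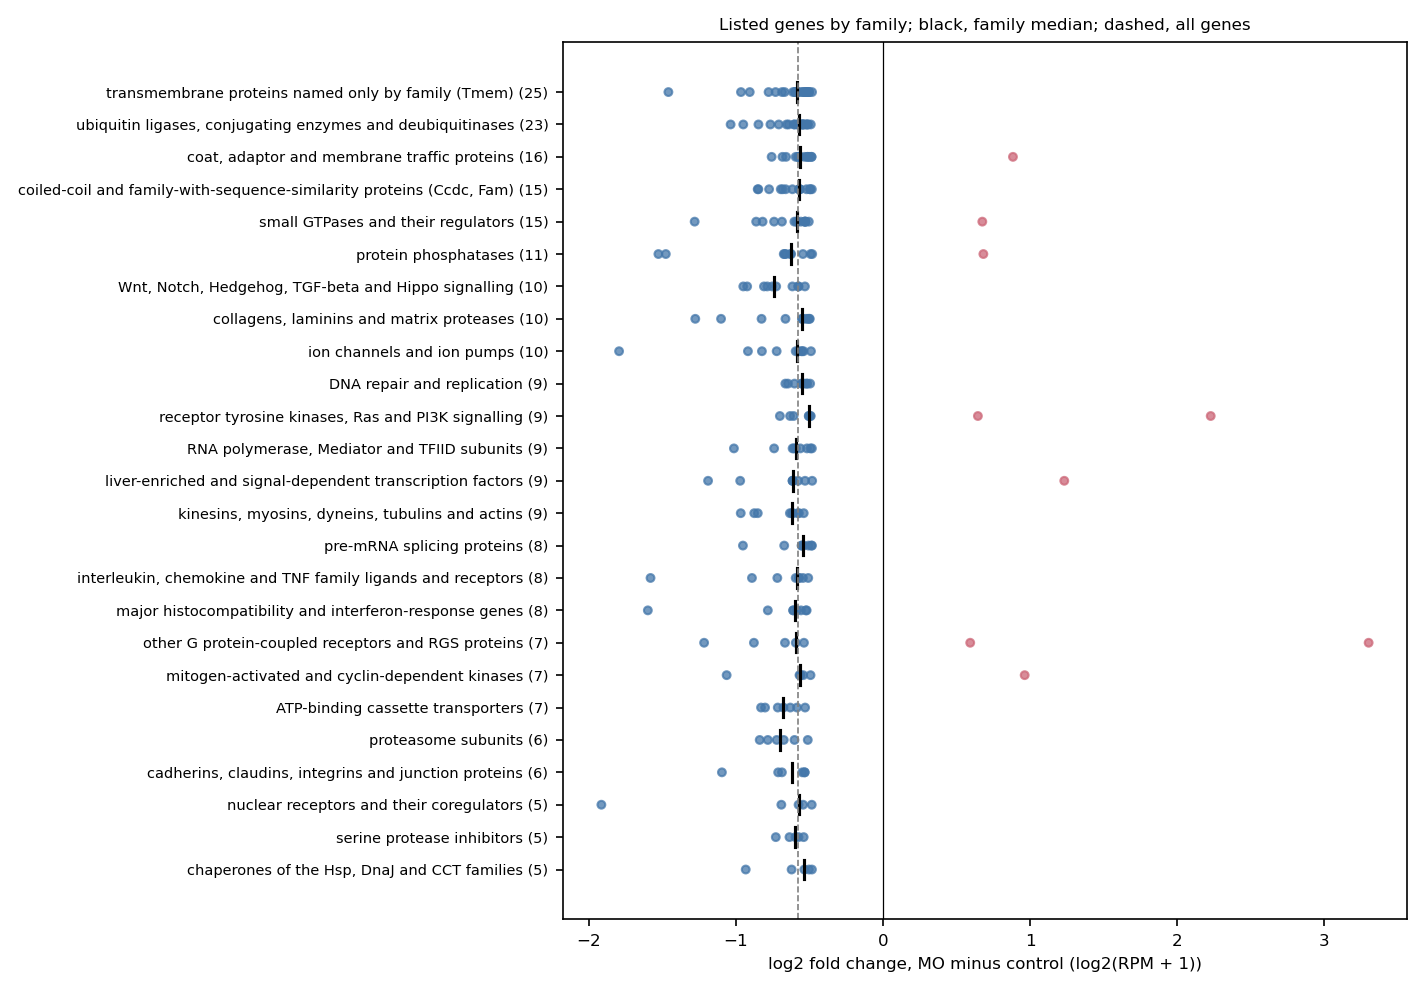
Each point is a listed gene, with its log2 fold change across and its family up (number of listed genes in brackets), and the black bar is the family's median. Family medians stay close to the dashed line, the median of all genes at -0.58, and 1 or 2 members rise in 7 of the families drawn.

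Of 407 ubiquitin ligases, conjugating enzymes and deubiquitinases, 23 were listed (5.65%), all lower, with a median of -0.57, and 10 of them did not overlap. Rnf125, a ligase that curbs interferon signalling, led with 4.00 to 11.7 RPM in controls (median 6.13) and 2.80, 1.61, 2.73, 3.21 and 2.76 RPM in MO males, without overlap. It was followed by Rnf43, which removes Wnt receptors from the cell surface (-0.95), and the deubiquitinase Usp49 (-0.85). All 6 listed proteasome genes of 48 (12.5%), which include assembly factors, were lower, with a median of -0.70. Among them were Psmd9 (-0.84) and Psmb9 of the immunoproteasome (-0.78). After centring 9 of the 23 and 5 of the 6 lay below the median change, and 0 passed the test.

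Membrane traffic had 16 listed genes of 191, 15 lower and Vps37b higher, and the small GTPases with their regulators had 15 of 201, 14 lower and Rab30 higher. The medians were -0.57 and -0.58, that of the table. Rab38, which sorts cargo to lysosome-related organelles, was at 9.31 to 18.5 RPM in controls and at 6.76, 6.17, 9.35, 7.46 and 8.37 RPM in MO males, so that MO 3 overlapped. Rab3d, of secretory granules, changed by -0.82 and the syntaxin Stx2 by -0.76. After centring 4 of the 16 traffic genes and 7 of the 15 GTPase genes lay below the median change.

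The list of RNA polymerase, Mediator and TFIID genes also took in Gtf2 genes that belong to none of these complexes. It gave 9 listed genes of 108, all lower, with a median of -0.59. The 1 gene without overlap was such a Gtf2 gene. Med20 (-1.01) and Med4 (-0.74) of Mediator led them, Med20 from 0.088 to 3.09 RPM in controls and at 0.31, 0.041, 0.019, 0.18 and 0.23 RPM in MO males. For Med20 controls 1 and 3, at 0.088 and 0.31 RPM, stood near the MO level. Its values in MO 2 and MO 3 are under the worth of 1 read, 0.095 and 0.088 RPM. Pre-mRNA splicing gave 8 of 147, all lower and 0 without overlap, with Hnrnpm at -0.67. Of 53 RNA helicases 0 were listed. Of 220 reference symbols counted as cytosolic ribosomal proteins, a number that takes in predicted genes, 1 was. Nuclear pore and transport genes gave 3 of 54, all lower, with Nup210 at -0.74 and the importin Kpna2 at -0.70.

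Protein phosphatases had 11 listed genes of 159 (6.92%), 10 lower and Dusp1 higher. Ptprn, a receptor-type member known from secretory granules, went without overlap from 8.15 to 16.02 RPM in controls (median 11.7) to 1.62, 6.08, 3.44, 3.02 and 5.09 RPM in MO males (-1.48 ± 0.23, SE; limma adjusted p = 0.00011). Mitogen-activated and cyclin-dependent kinases had 7 of 106, with Mapkapk3 higher and Cdk10 (-1.06) the lowest. Receptor tyrosine kinase, Ras and PI3 kinase genes had 9 of 75, with Socs2 and Irs2 higher. The list of G protein-coupled receptors and RGS proteins, which also took in an ATP-gated ion channel, had 7 of 380. In it Rgs16 and the vomeronasal receptor Vom2r44 were higher. Vom2r44 did not pass with only controls 2, 3, 4 and 6 (0.38, limma adjusted p = 0.090). Liver-enriched and signal-dependent transcription factors had 9 of 68, with Myc higher and Ahr (-1.19) and Atf5 (-0.97) the largest falls.

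The family with the lowest median among those with at least 10 listed genes was Wnt, Notch, Hedgehog, TGF-beta and Hippo signalling, at -0.74 over 10 listed genes of 77 (12.99%), all lower and 2 without overlap. Lrp5, a Wnt co-receptor on chromosome 1, was at 101.04 to 221 RPM in controls (median 139) and at 55.6, 56.6, 116, 67.1 and 92.9 RPM in MO males, with MO 3 in the control range (-0.92, limma adjusted p = 0.0035). Tead2, a partner of the Hippo effector Yap, was at -0.81. After centring 7 of the 10 lay below the median change and 0 passed.

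All 7 listed ATP-binding cassette transporters of 50 (14%) fell, with a median of -0.68 and 4 without overlap. Abcb4, the phospholipid exporter of bile, was at -0.80 with MO 1, 2 and 5 below the controls. Ion channels and pumps had 10 of 218, all lower, with Atp2b2 and the potassium channel Kcnk5 (-0.92) leading, and collagens, laminins and matrix proteases 10 of 151, all lower, with Adamts7 and the lysyl oxidase Loxl4 (-1.10). Cadherins, claudins, integrins and junction genes had 6 of 165, and kinesins, myosins, dyneins, tubulins and actins 9 of 174, with the tubulins Tubb2a at -0.97 and Tuba4a at -0.87.

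Major histocompatibility and interferon-response genes gave 8 of 124 (6.45%), all lower. Interleukin, chemokine and TNF-related genes gave 8 of 183 (4.37%), all lower. The latter were led by Tnfaip2, named for its induction by TNF (-1.58), and the receptor subunit Il11ra1 (-0.89). DNA repair and replication gave 9 of 72 (12.5%), all lower, among them the ligase Lig3 (-0.66) and its scaffold Xrcc1 (-0.65).

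Markers of liver cell types were checked because the samples are whole tissue. Of 63 markers 8 were listed, all lower. Of the 6 hepatocyte markers only Cps1, the first enzyme of the urea cycle, was listed. It was at 1265 ± 362 RPM (SD, n = 6) in controls and 857 ± 51.5 RPM (SD, n = 5) in MO males. The other hepatocyte markers were not among the selected rows, so they are not analysed here. Listed markers of other cells included Epcam and Krt19 of bile ducts, Vwf of endothelium, and Pdgfrb, Des and Reln of stellate cells. Cps1 did not pass with only controls 2, 3, 4 and 6 (-0.46; limma adjusted p = 0.055), nor Reln without control 3 (limma adjusted p = 0.056) or without MO 3 (limma adjusted p = 0.050). The 7 listed markers of cells other than hepatocytes summed to 70.3 to 82.2 RPM in controls (median 80.0) and to 43.2 to 55.7 RPM in MO males (median 50.6), without overlap. Only markers selected for a difference enter this sum, and all of them were lower, so a lower sum was built in. No marker of Kupffer cells, neutrophils, erythroid cells, exocrine pancreas or proliferation was listed. The part of cell composition in the changes above was not tested.

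In several genes the animals of a group sat at separate levels. A gap of 1 or more on the log2 scale between neighbouring animals was found in 23 rows among controls and in 8 rows among MO males. The RNA of the signal recognition particle, listed as LOC102723236 and known as Rn7sl1 in GRCr8, was at 15.9 and 6.13 RPM in controls 1 and 5, at 401 to 642 RPM in the other 4 controls, and at 6.71 to 27.6 RPM in MO males. The row named Rmrp, the RNA of a ribonuclease complex, had 1.20 and 1.52 RPM in controls 1 and 5, 36.9 to 51.2 RPM in the other controls and 1.71 to 3.11 RPM in MO males. Its accession now carries the symbol Rpph1 in the RefSeq table, so which RNA it counts is uncertain. Neither of these RNAs has a poly(A) tail, and in both the MO males stood with controls 1 and 5. Against those 2 controls alone the rows named Rmrp and LOC102723236 turned to 0.41 and 0.12, and 531 of the 1365 rows passed. A fit with 2 controls has less power than 1 with all 6. The direction was kept in 1314 of 1317 lower and 48 of 48 higher rows. Of the other genes named in the text Tsku, Slc25a47, Irs2, Derl3, Ptms, Rnf125, Rnf43, Rab38, Stx2, Hnrnpm, Med20, Cdk10, Kcnk5, Tubb2a, Xrcc1, Pola2, Patz1, Itih3, Aldh3b1, Cyp2f4, Cyp2t1, Epcam, Krt19, Ndufs8, Reln, Tcirg1, Vgll4 and 1 of 6 transcripts of Tmem176b then no longer passed, each with its direction kept.

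Other genes split the controls differently. Controls 2 and 4 had 5.60 and 6.59 RPM of Thra against 24.2 to 28.9 RPM in the other controls, and 12.2 to 18.0 RPM of the sulfotransferase Sult1c2 against 43.3 to 80.4 RPM. The same animals had more of Fras1, a protein of the extracellular matrix, at 4.36 and 3.30 RPM against 0.20 to 0.64 RPM, and MO males had 1.89 to 6.97 RPM. Among MO males, Ugt2b was at 12.5 to 16.01 RPM in MO 1, 2 and 3 and at 1175 and 1820 RPM in MO 5 and 4, and Gemin6, of the complex that assembles splicing particles, was at 2.09 to 4.16 RPM in MO 1, 2 and 5 and at 13.1 and 18.7 RPM in MO 4 and 3. No single split of the animals ran through these genes.

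**Figure D4:**
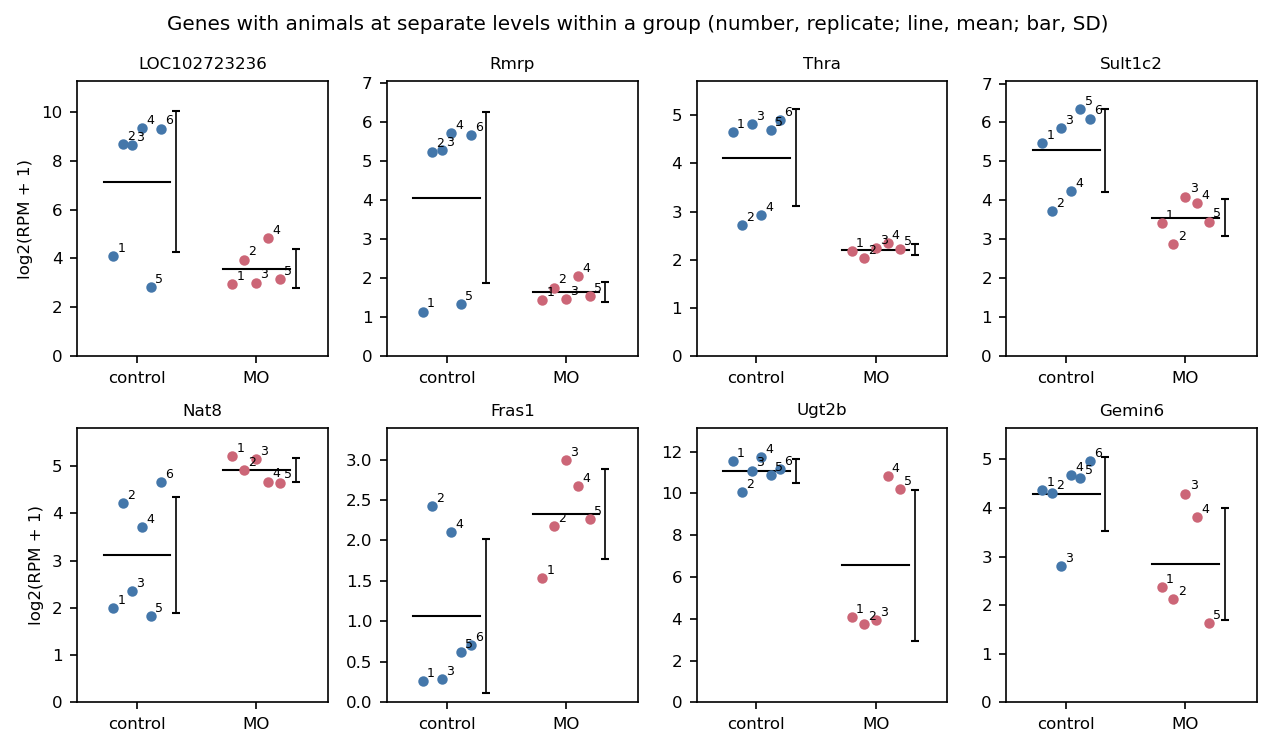
Each numbered point is an animal (its replicate number), with log2(RPM + 1) up, the line is the mean and the bar the SD. Controls 1 and 5 stand with the MO males for LOC102723236 and Rmrp, controls 2 and 4 lie nearest to them for Thra, Sult1c2 and Fras1, controls 1, 3 and 5 are lowest for Nat8, and MO 4 and 5 stand with the controls for Ugt2b.

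Where several transcripts of a gene were listed, they moved together in 16 of 17 genes. With 96.5% of all rows lower, agreement in direction was likely for any rows, and some transcripts of a gene held identical values. For Tmem176b, a membrane protein of immune and other cells, 6 transcripts were listed, all lower, from -1.46 to -0.81. The lowest, NM_001270589, was at 16.6 to 38.2 RPM in controls (median 30.8) and at 8.93, 10.4, 10.7, 9.18 and 9.98 RPM in MO males. The exception was Cenpl, a centromere protein. Its transcript NM_001244761 was at 2.297 to 4.25 RPM in controls (median 3.22) and at 2.04, 1.15, 0.26, 1.89 and 0.79 RPM in MO males, without overlap (-0.98 ± 0.21, SE; limma adjusted p = 0.0021). Its transcript NM_001033061 was at 0 to 1.30 RPM (median 0.18) and at 1.02, 0.75, 2.38, 1.98 and 1.02 RPM (0.77 ± 0.24, SE; limma adjusted p = 0.0086), and only MO 3 and 4 lay above the controls. The transcripts share sequence, so how reads were divided between them is uncertain.

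**Figure D5:**
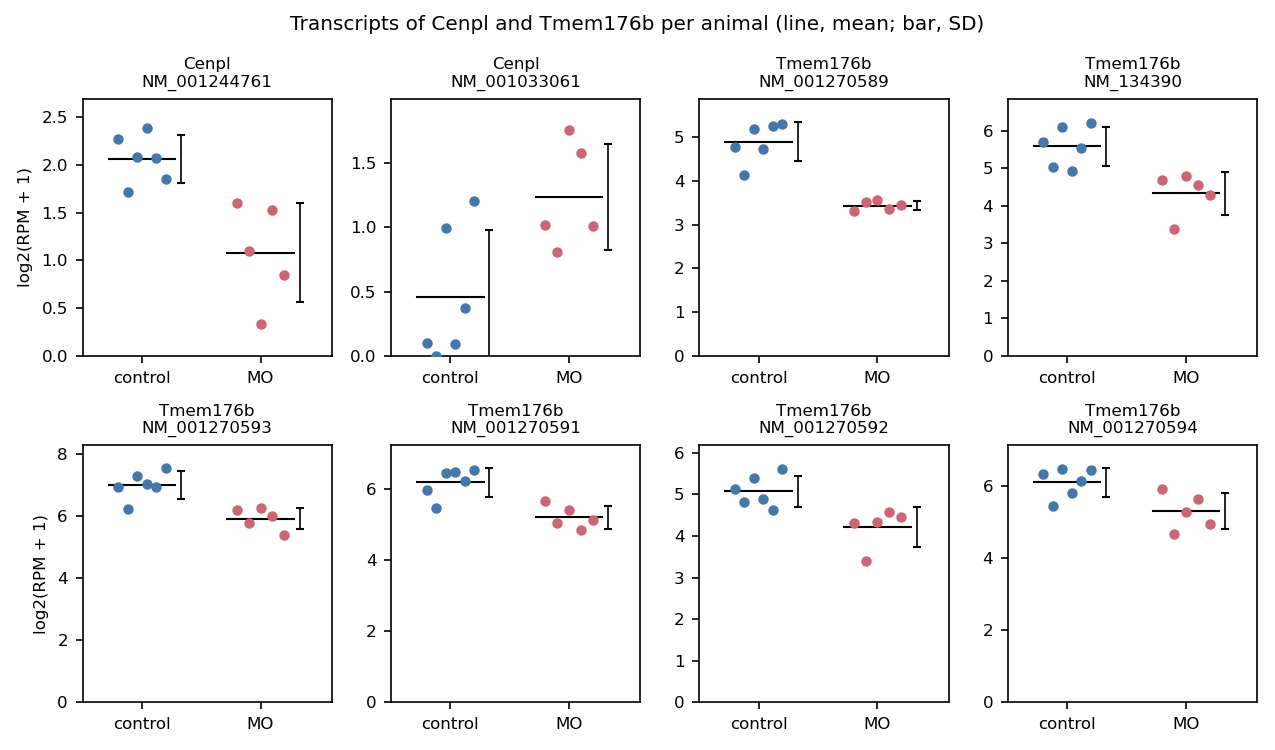
Each point is an animal, with log2(RPM + 1) of 1 transcript up and the group across, the line is the mean and the bar the SD. The Cenpl transcripts move in opposite directions at low levels, while the 6 Tmem176b transcripts all fall.

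Both deposited tables list 3 symbols, which are 4.41% of the 68 female genes and 0.226% of the male genes. Pola2, a subunit of DNA polymerase alpha, was at 1.25 to 2.66 RPM in control males (median 1.74) and at 0.99, 1.23, 0.88, 0.75 and 0.95 RPM in MO males. It was higher in MO females, at 1.55, 2.27, 4.59, 4.40 and 2.99 RPM against 0.76 to 2.51 RPM in control females. The diet effect was -0.51 in males and 0.75 in females, and the difference between them was -1.26 ± 0.29 (SE; limma adjusted p = 0.00093 over the 3 genes). The male rows had been selected for a difference, and Pola2 and Patz1 went the opposite way in females. A contrast of the sexes was therefore likely to pass, and it is no independent test.

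Patz1, a zinc finger transcription factor, was at -0.71 in males and 0.53 in females, a difference of -1.24 ± 0.33 (SE; limma adjusted p = 0.0017), at levels under 2 RPM throughout. RT1-N1, a class I histocompatibility gene, was lower in both tables, at -1.60 in males and -1.94 in females, and the effects did not differ beyond their error (0.35 ± 0.82, SE; limma adjusted p = 0.68). After centring 0 of the 3 differences passed limma's test (Pola2 -0.45, adjusted p = 0.086, unadjusted p = 0.029; Patz1 -0.43, adjusted p = 0.21).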

How the data were processed

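Liver RNA of 22 Wistar rats was sequenced, and the male table (6 control and 5 MO animals) is described here. Partek, STAR 2.3.1j and the build rn5 are named in the submitters' processing notes, without their roles. The values deposited by the authors are in RPM with 1 added, inferred from the values: the lowest is exactly 1, and in each male library 81.4% to 87.2% of values under 9 RPM are whole multiples of 1 step (within 0.02 of a read). Reads were not all whole, so no count test was run. The deposited fold column gives the size of a log2 difference, and the deposited p-value column is unadjusted. How reads that fit several transcripts were counted is not given in the sources used here.

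After the 1 was subtracted, limma 3.58.1 (limma-trend, R 4.3.3) was fitted to log2(RPM + 1), a pseudocount of 1, with no filter, over all rows, with Benjamini-Hochberg adjustment and a threshold of 0.05. The fit was tested on simulated data. For the 3 genes in both tables the 4 groups were fitted without a trend, which so few rows do not allow. Of the 1365 rows 1349 matched the GRCr8 reference table, which gave names, gene order and promoters, while chromosomes are those of the deposited table.

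Named genes were the 20 largest changes each way, the 10 most abundant lower genes without overlap, in each list with at least 3 listed genes the 3 largest and any opposite member, the lower genes that pass after centring, genes of both tables and RNAs without a poly(A) tail. A few genes that the rule names are not reported here. Genes named only in promoter counts, summed changes, markers or for animals at separate levels were chosen after their values were seen. The members and lists were chosen with earlier results of these data known. Alternatives were another pseudocount, a filter at a mean of 1 RPM, centred libraries, other tests, a replicate block, each animal left out, and subsets of the controls.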

Additional observations from a re-analysis of the deposited data

Results flagged for a closer look

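Within-group values of the 127 named genes were examined for 1 animal far from the rest of its group, as Dixon's criterion at 95% judges it. Of 254 groups 15 held such an animal, and chance flags about 1 in 20 groups. Control 6 was the highest control and apart from the others for Slc25a30 (44.6 RPM), Dusp1 (104 RPM), Aldh9a1 (1192 RPM), Rnf43 (13.5 RPM) and Rab3d (6.16 RPM). Control 1 stood apart for Socs2 (17.8 RPM) and Atp2b2 (15.7 RPM), and control 4 for Lonrf3 (6.97 RPM), each at the top of its group.

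Among MO males, MO 1 was high for Cyp2c13 (2009 RPM), MO 3 for Patz1 (1.32 RPM) and C1s (676 RPM) and MO 4 for Sgk2 (10.9 RPM). MO 4 was low for Gimd1 (10.6 RPM), MO 2 for Cth (219.6 RPM) and MO 5 for Aqp9 (76.5 RPM). Each of these genes passed limma's test at an adjusted p of 0.05 when the animal that stood apart was left out.

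The effect of the maternal diet differed between the male and the female table for Patz1 (male minus female -1.24 on the log2 scale) and Pola2 (-1.26), by limma's interaction contrast over 3 genes. Both are under 5 RPM in every animal, and neither difference passed after the libraries were centred. Both were listed rows with opposite directions in the sexes, so the contrast was likely to pass from the selection of rows.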

How the results depend on the processing

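Centring the libraries, on medians over selected rows that nearly all fell, had the largest effect. It left 24 of 1317 lower rows past the threshold and all 48 higher rows, moved the listed family genes from 272 lower and 11 higher to 135 and 148, and left 0 of 2 differences between the tables. The signs of Ptms (0.032), Aldh9a1 (0.033), Pola2 (0.071), Itih3 (0.10), Aldh3b1 (0.014), C1r (0.0091), Cps1 (0.068), Cyp2t1 (0.099), Ndufs8 (0.036), Reln (0.10) and Vwf (0.10) turned, and 63 other named genes of 127 no longer passed. Only controls 1 and 5 left 493 lower and 38 higher rows, with the direction kept in 1314 of 1317 and 48 of 48, and turned Rmrp (0.41) and LOC102723236 (0.12). Leaving out 1 animal gave 1235 (without MO 5) to 1316 lower and 47 to 48 higher rows. A pseudocount of 0.25 and the equal-variance model changed no count, the permutation test gave 1292 and 44, and a mean of at least 1 RPM gave 1291 and 43 of 1334 rows. The replicate numbers do not pair the animals, with correlations of deviations from -0.10 to 0.15 for the same number and only control 4 closest to its own number. With the replicate block 1295 lower and 48 higher rows passed, 1343 in all, and the 2 differences between the tables still passed. Calls of named genes were also lost under the permutation test (Rmrp, adjusted p = 0.061; Mapre2, 0.050; Vgll4, 0.058), with 1 animal left out (limma adjusted p of Mapre2 without control 4 0.053, Reln without control 3 0.056 and without MO 3 0.050, Cyp2t1 without MO 3 0.059, Itih3 without MO 5 0.056) and with only controls 2, 3, 4 and 6 (limma adjusted p of Slc25a42 0.078, Cps1 0.055, Mapre2 0.086, Vom2r44 0.090). Depth limits values near or under 1 RPM, where 1 read was worth 0.086 to 0.127 RPM.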

Other observations

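In the GRCr8 gene order of 18533 protein-coding genes, 1305 listed genes were placed, and 263 of them stood in 124 runs of neighbours with no unlisted gene between. The longest runs held 4 genes. Among them, Cyp2a1, Cyp2a2, Cyp2f4 and Cyp2t1 on chromosome 1 are cytochromes of a single cluster, all lower. Chka, a choline kinase that was higher in all 5 MO males than in every control, stood beside Tcirg1, Ndufs8 and Aldh3b1, which were lower. Cyp2t1 did not pass without MO 3 (limma adjusted p = 0.059). The complement proteases C1rl, C1r and C1s on chromosome 4 and the phosphate and urate carriers Slc17a4, Slc17a1 and Slc17a3 on chromosome 17 formed runs of 3. In 6 of the 124 runs the members went both ways. No test was made of whether such runs exceed those of a table of this size.

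Some low values were under the worth of 1 read. Cdk10 was at 0.0091 RPM in MO 3 and 0.0015 RPM in MO 5, and Patz1 at 0.0012 RPM in MO 5, where 1 read was worth 0.086 RPM in MO 5. For such rows a value holds a fraction of a read.

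One row carried the number 42438 in place of a symbol. Its accession is now Marchf9, a membrane-bound ubiquitin ligase, and its change was -0.51, or -0.32 against only controls 1 and 5, where it did not pass.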
